A study of Pan troglodytes with 50 samples.

Results

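The 27 reporter pairs described here each joined the human and the chimpanzee version of 1 tile of a human accelerated region (HAR), and their human version drove more reporter RNA per DNA than the chimpanzee version in the HAR control library. They were chosen from 839 such pairs, which makes them 3.22% of all pairs. A pair belonged to the set where the mean over 3 HAR control cultures of log2((RNA + 1)/(DNA + 1)), with counts summed over barcodes and scaled to a common library total, was higher for the human allele by 0.3 or more. Because these values chose the pairs, they are given below as a description without a test. The question was then asked of the HAR library, which was read in other cultures: in which line and at which stage was the human allele of these 27 pairs higher there.

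A HAR is a stretch of DNA that stayed nearly the same over mammalian evolution and then gathered substitutions on the human lineage. Many HARs lie outside genes and act as developmental enhancers, often near genes of the nervous system, so a change in their sequence can change when or how strongly a gene is switched on. In a lentiviral massively parallel reporter assay (lentiMPRA), each candidate sequence is placed in front of a minimal promoter with a barcode in the transcript, the pool is integrated into cells by lentivirus, and the ratio of barcode RNA to barcode DNA reads how strongly each sequence drives transcription.

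All cells were chimpanzee. Pt2A and Pt5C are induced pluripotent stem cell (iPSC) lines from 1 chimpanzee each, so a difference between lines is also a difference between individuals. N2 cells were labelled neural progenitors and N3 cells glial progenitors, both made from these iPSCs and labelled telencephalon, and each group held 3 independently infected cultures with 1 RNA and 1 DNA library apiece. The HAR library was read in both lines at both stages, which gives 4 groups and 24 libraries, and the HAR control library in Pt2A at N2 only (6 libraries). No group carried a drug or a genetic change other than the integrated reporters, and the labels gave a high number of integrations per cell. Human cells of the wider study are not analysed here, so both alleles were read in a chimpanzee background.

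The pairs came from 25 HARs on 15 chromosomes, 5 of them on chromosome 3. In 15 the HAR fitted on a single tile, and in 12 the tile was one of several that cover the HAR. 2xHAR.548 and 2xHAR.513 entered with both of their tiles, which overlapped by 123 and 110 bases and so are not independent. Every tile was 171 bases long. None of the 54 elements carried the base change that removes a restriction site (53 of the 839 pairs did), and human and chimpanzee tiles had the same coordinates in all 27 (24 of the 839 pairs were offset). Each allele was represented by 56 to 100 barcodes, with a mean DNA count per library of 547 to 15140.

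The deposited tables give barcodes, counts and element names, and the allele sequences of these tiles were not used here. For 2 of the member HARs the library design also held a shuffled version, a scrambled sequence of the same length made as a control. They are shown because they give, within the HAR control library, the level reached by a scrambled sequence of these HARs. Both are printed 5′ to 3′ as the 171-base insert of the oligo, with no part in capitals.

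shuffled 2xHAR.120: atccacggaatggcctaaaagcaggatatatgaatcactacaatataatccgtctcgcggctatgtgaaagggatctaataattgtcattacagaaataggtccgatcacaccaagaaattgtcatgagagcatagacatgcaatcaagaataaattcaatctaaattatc

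shuffled 2xHAR.215: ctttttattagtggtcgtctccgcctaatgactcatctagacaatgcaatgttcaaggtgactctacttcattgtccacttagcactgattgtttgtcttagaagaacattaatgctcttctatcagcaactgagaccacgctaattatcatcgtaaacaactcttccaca

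The shuffled 2xHAR.120 insert has a GC content of 36.3% and was read on 100 barcodes, and the shuffled 2xHAR.215 insert has 39.2% and was read on 99. Activity is given throughout as log2((RNA + 0.5)/(DNA + 0.5)) minus the median of the same value over the 118 sequences named as negative controls, so 0 is the level of a typical negative control. The shuffled 2xHAR.120 sequence read 0.22, 0.31 and 0.29 in the 3 HAR control cultures. Its mean of 0.27 ± 0.05 (SD, n = 3) lay between the chimpanzee allele at −0.01 ± 0.04 and the human allele at 0.36 ± 0.05. The shuffled 2xHAR.215 sequence read 0.25, 0.11 and 0.21, with a mean of 0.19 ± 0.07. That was below both natural alleles, which read 0.36 ± 0.05 (chimpanzee) and 0.77 ± 0.04 (human). These allele values are the ones by which the pairs were chosen, so the comparison with the scrambled sequences is a description only. In the HAR library the 2xHAR.215 human allele read 0.15 and 0.20 at N2 in Pt2A and Pt5C, and 0.08 and 0.25 at N3. The 2xHAR.120 human allele read −0.15 and 0.18 at N2 and 0.19 and 0.25 at N3. Over all 150 shuffled HARs the activity ran from −0.24 to 0.85 with a median of 0.17, and 119 lay above the median negative control.

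In the HAR control library, where the pairs were chosen, the difference in log2 between the alleles ran from 0.30 to 1.07 with a median of 0.43. Over all 839 pairs the median was 0.00, and the 5th and 95th percentiles were −0.23 and 0.23. 2xHAR.548 tile 2 had the highest value, 1.07 ± 0.06 (SD, n = 3), followed by 2xHAR.10 tile 1 (0.91 ± 0.05), 2xHAR.513 tile 2 (0.87 ± 0.01), 2xHAR.445 (0.80 ± 0.08), 2xHAR.270 tile 1 (0.75 ± 0.03), 2xHAR.548 tile 1 (0.70 ± 0.03), 2xHAR.513 tile 1 (0.64 ± 0.01) and 2xHAR.166 (0.54 ± 0.05). The 3 pairs just inside the threshold were 2xHAR.274 (0.34), HAR152 (0.33) and HAR126 (0.30), and the 3 just outside were 2xHAR.106 (0.29), 2xHAR.127 tile 1 (0.28) and 2xHAR.140 (0.27). All 27 human alleles lay above the median negative control there, with a median activity of 0.55, and 18 of the 27 chimpanzee alleles did, with a median of 0.12. The opposite tail was of similar size, with 19 pairs lower in human by 0.3 or more.

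Of the 4477 barcodes that tagged the member alleles in the HAR library, 4391 were also read in the HAR control library. The cultures differed between the libraries but the barcoded constructs did not, so an effect that belongs to a barcode rather than to the allele would appear in both. The permutation library, which uses other barcodes, held 0 elements of these HARs, and 0 combined human and chimpanzee variants of them were found in the tables used here, so no test on separate barcodes could be made.

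Depth in the HAR library ran from 6641422 to 16823119 counts per DNA library and from 5410033 to 41867492 per RNA library, and in the HAR control library from 8649221 to 9464926 and from 24263262 to 25951194. The HAR library's Pt2A N2 cultures stood apart. Over the 839 pairs, the allele differences of Pt2A N2 correlated with those of the HAR control library at r = 0.127, although both were read in Pt2A at N2, while Pt5C N2, Pt2A N3 and Pt5C N3 gave 0.643, 0.662 and 0.758. These are correlations across pairs that share barcodes and are a description only. In Pt5C N2, replicate 3 differed from replicates 1 and 2: its median difference over the members was 0.10 against 0.22 and 0.23, and it gave the lowest of the 3 differences in 22 of the 27 members. Results that rest on these libraries are given below also with N2 RNA set over the N3 DNA of the same line, or without the library.

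A pair was called where an edgeR quasi-likelihood test across cultures and a permutation test that reassigns a pair's barcodes between its alleles both gave a Benjamini-Hochberg adjusted p under 0.05 over all 839 pairs, with the same sign. In Pt5C N3 the human allele was higher by this rule in 12 of the 27 members, against 1.55% of all pairs called higher in human. In Pt5C N2 it was higher in 11, against 1.79% of all pairs. Pt2A N3 gave 7, against 1.31%. In Pt2A N2 it was higher in 2, against 1.91% of all pairs, and lower in 1 (2xHAR.270 tile 1), against 2.74% called lower. No member was called lower in the other 3 groups, where 1.55% (Pt5C N2), 1.43% (Pt2A N3) and 1.31% (Pt5C N3) of all pairs were. The members therefore made up most of the pairs called higher in human in 3 groups, 12 of 13 in Pt5C N3, 11 of 15 in Pt5C N2 and 7 of 11 in Pt2A N3, and 2 of 16 in Pt2A N2. By edgeR alone, which leaves out the spread between barcodes, 22, 19, 17 and 5 members were higher in Pt5C N3, Pt5C N2, Pt2A N3 and Pt2A N2, against 14.9%, 13.6%, 14.4% and 14.5% of all pairs.

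The sizes followed the same order. The median difference over the 27 members was 0.25 for Pt5C N3, 0.19 for Pt5C N2, 0.19 for Pt2A N3 and 0.03 for Pt2A N2, and 24, 26, 23 and 16 of the 27 values were above 0. Over all 839 pairs the medians lay between −0.01 and 0.00, with 50.8%, 47.8%, 49.2% and 47.6% above 0. Each of these medians was smaller than the 0.43 by which the members were chosen. In Pt2A N2 the differences of the members ran from −0.43 to 0.48. They ran from −0.06 to 0.36 in Pt5C N2, from −0.09 to 1.07 in Pt2A N3 and from −0.06 to 0.59 in Pt5C N3. Set over N3 DNA, the Pt2A N2 RNA gave a median of 0.11, 24 of 27 members were above 0, and 4 were called higher, against 0.477% of all pairs. Pt5C N2 gave 12 calls over N3 DNA, against 2.03%.

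Averaged over the 4 groups, the human allele was higher by both tests in 5 members, against 0.834% of all pairs (7 pairs), and in 0 lower. By edgeR alone the average was higher in 21 members, against 27.2% of all pairs. Without Pt2A N2 the mean of the other 3 groups gave 11 members, against 1.67%, and with N3 DNA under the N2 RNA the mean of the 4 gave 8, against 1.07%. The 5 called in the main mean, 2xHAR.548 tiles 1 and 2, 2xHAR.10 tile 1, 2xHAR.424 tile 3 and 2xHAR.520 tile 1, were among the calls in both alternatives. By group, 15 members were called in at least 1 group, 11 in at least 2, 5 in at least 3 and 1 (2xHAR.10 tile 1) in all 4, and 12 in none. For comparison, 37, 12, 5 and 1 of the 839 pairs were called higher in that many groups. The barcode permutation test's adjusted p of 0.000524 in Pt2A N2, of 0.0012 in Pt5C N2 and in the mean, and at N3 of 0.00105 in Pt2A and 0.000932 in Pt5C were the lowest the resampling allowed in those comparisons.

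2xHAR.10 tile 1 (chr2:113992950-113993120, GRCh37, in the region of PAX8, a transcription factor gene of kidney, thyroid and hindbrain development) was the member called in every group. Human allele activity in cultures 1, 2 and 3 was 0.28, 0.32 and 0.35 in Pt2A N2, and its chimpanzee allele read −0.01, 0.10 and 0.09. In Pt5C N2 the human allele read 0.84, 0.78 and 0.42 against 0.41, 0.37 and 0.18. At N3 the human values were 1.13, 1.18 and 1.22 in Pt2A and 1.25, 1.23 and 1.31 in Pt5C, against chimpanzee values of 0.40, 0.44 and 0.47 and of 0.63, 0.69 and 0.69. In all 4 groups the lowest human culture lay above the highest chimpanzee culture. Among these groups both alleles were most active at N3, while the HAR control library, read at N2, gave 1.56 and 0.65. In the HAR library the allele difference was 0.26 ± 0.04 (SD, n = 3) at N2 in Pt2A and 0.36 ± 0.11 in Pt5C. At N3 it was 0.74 ± 0.01 in Pt2A and 0.59 ± 0.05 in Pt5C. The largest adjusted p of the 4 was 0.0012 by the barcode permutation test and 0.00316 by edgeR's quasi-likelihood test.

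2xHAR.548 lies in the interval beside FOXP1, a transcription factor gene of cortical and speech circuits, and both of its tiles were members. Tile 1 (chr3:70655294-70655464) was among the most active sequences of the set. Its human allele read 0.73, 0.77 and 0.80 at N2 in Pt2A and 1.19, 1.16 and 0.68 in Pt5C, and at N3 1.29, 1.25 and 1.20 in Pt2A and 1.55, 1.62 and 1.57 in Pt5C. Chimpanzee values were 0.29, 0.26 and 0.31, then 0.97, 1.03 and 0.57, then 0.46, 0.58 and 0.45, and 1.03, 1.08 and 1.02 in the same order. The alleles did not overlap in Pt2A N2, Pt2A N3 and Pt5C N3, and they overlapped in Pt5C N2, where replicate 3 read low for both. The differences were 0.48 ± 0.04 (SD, n = 3), 0.15 ± 0.06, 0.75 ± 0.07 and 0.54 ± 0.01. The Pt5C N2 difference was not called (adjusted p = 0.534 by the barcode permutation test and 0.284 by edgeR), and the other 3 were, with adjusted p of 0.00056 or less by edgeR.

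Tile 2 of 2xHAR.548 (chr3:70655342-70655512) shares 123 bases with tile 1 and had the largest difference of any member in a single group. Its human allele read 1.44, 1.47 and 1.30 in Pt2A N3, against 0.39, 0.36 and 0.24 for the chimpanzee allele. In Pt5C N3 it read 0.92, 0.98 and 0.92 against 0.47, 0.38 and 0.32. These groups did not overlap, and the differences were 1.07 ± 0.03 (SD, n = 3) and 0.55 ± 0.09. At N2 of the HAR library the tile was weaker. In Pt5C the human allele read 0.70, 0.64 and 0.25 against 0.26, 0.28 and 0.17. Both alleles were near 0 in Pt2A, with 0.07, −0.08 and 0.15 against −0.01, −0.02 and 0.01. The Pt5C N2 difference of 0.29 ± 0.19 was called (adjusted p = 0.0214 by the barcode permutation test, 0.000463 by edgeR). It was 0.43, 0.36 and 0.08 in the 3 cultures, and it was no longer called without replicate 1 (0.22, adjusted p = 0.161 by the barcode permutation test) or without replicate 2 (0.26, adjusted p = 0.0821), nor without the strongest barcode of each allele (0.26, adjusted p = 0.0601). The Pt2A N2 difference of 0.05 ± 0.10 was not called, but with N3 DNA it was 0.45 and was.

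Within the HAR library, 2xHAR.424 tile 3 (chr14:37504165-37504335, in the region of SLC25A21, a mitochondrial carrier gene) was active mainly in Pt5C. Its human allele read 0.59, 0.59 and 0.60 in Pt5C N3 and 0.27, 0.32 and 0.08 in Pt5C N2, against chimpanzee values of 0.03, 0.13 and 0.15 and of 0.01, −0.01 and 0.01. In Pt2A it read 0.05, 0.04 and 0.14 at N2 and 0.04, 0.12 and 0.04 at N3, against −0.06, 0.01 and 0.02 and −0.08, −0.03 and 0.00. Human cultures were above chimpanzee cultures without overlap in all 4 groups. The difference was 0.50 ± 0.06 (SD, n = 3) in Pt5C N3 and 0.22 ± 0.13 in Pt5C N2, both called, and 0.10 ± 0.06 and 0.09 ± 0.05 in Pt2A N3 and N2, not called. In Pt5C N2 the call was lost without replicate 1 (0.20, adjusted p = 0.0886 by the barcode permutation test) or replicate 2 (0.17, adjusted p = 0.299).

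In 2xHAR.520 tile 1 (chr3:161591807-161591977) the group means lay above the median negative control for the human allele and below it for the chimpanzee allele. In Pt2A N2 the human allele of this tile was not called higher than that median (adjusted p = 0.173 by edgeR). Its human allele read 0.26, 0.15 and 0.11 in Pt5C N2, and at N3 0.24, 0.26 and 0.15 in Pt2A and 0.30, 0.32 and 0.30 in Pt5C. The chimpanzee allele read −0.08, −0.08 and −0.09, then −0.05, 0.00 and 0.00, and then −0.04, −0.09 and −0.18. In Pt2A N2 the alleles were closer, at 0.02, 0.04 and 0.06 against −0.04, 0.01 and −0.01. The groups did not overlap in any of the 4, and the differences were 0.06 ± 0.02 (SD, n = 3) at N2 in Pt2A and 0.25 ± 0.08 in Pt5C, and at N3 0.24 ± 0.07 in Pt2A and 0.41 ± 0.07 in Pt5C. All but the first were called, with adjusted p of 0.0258 or less by the barcode permutation test and 1.01e-06 or less by edgeR. The Pt2A N3 call was lost without replicate 1 (adjusted p = 0.104 by the barcode permutation test) or replicate 2 (adjusted p = 0.122).

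The remaining 6 members called in at least 2 groups were not called in the mean of the 4. For 2xHAR.513 tile 1 (chr12:60916496-60916666), the allele difference in cultures 1, 2 and 3 was 0.16, 0.17 and 0.10 at N2 in Pt2A and 0.43, 0.41 and 0.23 in Pt5C, and at N3 0.18, 0.14 and 0.03 in Pt2A and 0.33, 0.34 and 0.28 in Pt5C. All 12 cultures were above 0, and the 2 Pt5C groups were called. Tile 2 of 2xHAR.513 (chr12:60916557-60916727), which shares 110 bases with it, gave 0.01, 0.07 and 0.09, then 0.40, 0.35 and 0.26, then −0.12, −0.01 and −0.12, and 0.29, 0.30 and 0.31. The 2 tiles had the same pattern of calls, in Pt5C at both stages and not in Pt2A. In Pt2A N3 their values differed in sign, with every culture above 0 for tile 1 and below 0 for tile 2. In Pt5C N3 the mean differences were 0.32 ± 0.04 (SD, n = 3; adjusted p = 0.0248 by the barcode permutation test) for tile 1 and 0.30 ± 0.01 (adjusted p = 0.0121) for tile 2.

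2xHAR.445 (chr20:30753247-30753417) showed differences of −0.04, −0.09 and −0.07 at N2 in Pt2A and 0.30, 0.26 and 0.07 in Pt5C, and at N3 0.15, 0.11 and 0.09 in Pt2A and 0.43, 0.36 and 0.31 in Pt5C. Those of 2xHAR.472 (chr15:91865046-91865216) were −0.02, 0.01 and 0.02, then 0.18, 0.24 and 0.16, then 0.05, 0.05 and −0.02, and 0.33, 0.22 and 0.20. Both pairs were called in Pt5C at N2 and N3 and in neither Pt2A group. Mean differences in Pt5C N3 were 0.37 ± 0.06 (SD, n = 3) for 2xHAR.445, with an adjusted p of 0.000932 by the barcode permutation test, and 0.25 ± 0.07 for 2xHAR.472, with 0.0103. The Pt5C N2 calls of both depended on a culture: 2xHAR.445 lost its call without replicate 1 (adjusted p = 0.142 by the barcode permutation test) or replicate 2 (0.0747), and 2xHAR.472 without replicate 2 (0.113). The 2xHAR.445 call was also lost without the strongest barcodes (0.0676), and that of 2xHAR.472 with N3 DNA (0.0704). In Pt5C N3, 2xHAR.513 tile 1 and 2xHAR.472 lost their calls without replicate 1 (0.0641 for both).

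2xHAR.530 (chr10:107100448-107100618) changed sign between groups. Its differences were −0.09, −0.15 and −0.11 at N2 in Pt2A and 0.31, 0.20 and 0.09 in Pt5C, and at N3 0.13, 0.28 and 0.30 in Pt2A and 0.18, 0.27 and 0.17 in Pt5C. The 3 groups with positive values were called, with means of 0.20 ± 0.11 (SD, n = 3), 0.24 ± 0.09 and 0.21 ± 0.06. With N3 DNA the Pt2A N2 difference was 0.08 and was not called. By the barcode permutation test, 2xHAR.530 lost its Pt5C N2 call without replicate 1 (adjusted p = 0.308) or replicate 2 (0.0574) and its Pt5C N3 call without replicate 1 (0.0641) or replicate 2 (0.169). 2xHAR.70 tile 3 (chr5:164259986-164260156) gave 0.03, −0.14 and 0.05 at N2 in Pt2A and 0.28, 0.31 and 0.18 in Pt5C, and at N3 0.27, 0.15 and 0.27 in Pt2A and 0.25, 0.35 and 0.09 in Pt5C. It was called in Pt5C N2 (adjusted p = 0.0012 by the barcode permutation test) and Pt2A N3 (0.0375), and missed the threshold in Pt5C N3 (0.07). The Pt2A N3 call was lost without replicate 1 (0.109) or replicate 3 (0.0503). Its Pt2A N2 difference was 0.28 with N3 DNA and was then called.

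In 4 members a single group was called. 2xHAR.149 (chr7:1277066-1277236) had the highest DNA counts of the set and was active in both alleles, with 0.96 ± 0.03 (SD, n = 3) for human and 0.67 ± 0.03 for chimpanzee in Pt2A N3, where the difference of 0.29 ± 0.05 was called. Its differences in Pt2A N2, Pt5C N2 and Pt5C N3 were 0.04, 0.12 and 0.13. 2xHAR.273 (chr9:117803534-117803704) was called in Pt5C N3 (0.26 ± 0.07) with 0.03, 0.11 and 0.22 in Pt2A N2, Pt5C N2 and Pt2A N3. 2xHAR.48 tile 2 (chr14:47309491-47309661) was called in Pt5C N3 (0.37 ± 0.17) with −0.07, 0.17 and 0.23. 2xHAR.47 (chr3:170819795-170819965, in the region of TNIK, a kinase gene of synapses and Wnt signalling) was called in Pt5C N2 (0.20 ± 0.06) with 0.01 in Pt2A N2 and with nearly the same size at N3, 0.22 in Pt2A and 0.23 in Pt5C. By the barcode permutation test, the calls of 2xHAR.273 and 2xHAR.48 tile 2 were lost without Pt5C N3 replicate 1 (adjusted p = 0.0599 and 0.061) or replicate 3 (0.139 and 0.294), and that of 2xHAR.47 without Pt5C N2 replicate 1 (0.119). A call in 1 group only is not a test of a difference between groups.

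12 members were not called higher in any group. 2xHAR.270 tile 1 (chr6:29555987-29556157) was among the highest in the HAR control library and went the other way in the same line and stage of the HAR library. In Pt2A N2 its human allele read −0.05, −0.11 and −0.01 and its chimpanzee allele 0.38, 0.30 and 0.43. The difference of −0.43 ± 0.02 (SD, n = 3) was called lower in human (adjusted p = 0.000932 by the barcode permutation test, 2.26e-10 by edgeR), and with N3 DNA it was −0.30 and still called. In the HAR control library its human allele had read 0.85, 0.86 and 0.88 against 0.13, 0.12 and 0.09. The 2 libraries of Pt2A N2 thus gave opposite orders without overlap in either, while Pt5C N2 (0.02 ± 0.09) and Pt2A N3 (0.00 ± 0.04) gave no difference beyond their spread and Pt5C N3 gave 0.26 ± 0.01, not called. 2xHAR.166 (chr18:44929931-44930101), the eighth in the HAR control library, was higher in 11 of 12 cultures, with 0.44 ± 0.09 in Pt5C N3 (adjusted p = 0.0649 by the barcode permutation test, 1.73e-07 by edgeR), and was not called.

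Of the other 10 uncalled members, HAR126 (chr5:165981546-165981716) had a human allele above the chimpanzee allele in all 12 cultures, by 0.13, 0.19, 0.14 and 0.23 at N2 in Pt2A and Pt5C and then at N3 in Pt2A and Pt5C. HAR152 (chr4:113434826-113434996, at NEUROG2, a proneural transcription factor gene) had mean differences of 0.05, 0.36, 0.28 and 0.57, of which the last is among the largest of the set, but only edgeR called it (adjusted p = 7.59e-06) and the barcode permutation test did not (adjusted p = 0.18). HAR106 tile 1 (chr18:35294747-35294917), with 0.50 in the HAR control library, had −0.01, 0.07, −0.09 and −0.03. 2xHAR.215 had 0.05, 0.02, −0.06 and −0.01, and 2xHAR.63 (chr3:4774759-4774929, in the region of ITPR1, a calcium channel gene of the endoplasmic reticulum) had −0.06, 0.06, 0.06 and 0.04. In these last 3 the alleles could not be told apart in any group at this depth. 2xHAR.458, 2xHAR.228, 2xHAR.120, 2xHAR.430 tile 2 and 2xHAR.274 made up the rest, with differences from −0.42 (2xHAR.458 in Pt2A N2) to 0.25 (2xHAR.120 in Pt5C N3).

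Counted over cultures, the human allele was above the chimpanzee allele in all 12 cultures in 7 members, against 8.58% of all pairs. All 3 human cultures lay above all 3 chimpanzee cultures in 22 members for Pt5C N3, 17 for Pt5C N2, 19 for Pt2A N3 and 10 for Pt2A N2, against 20.7%, 16.4%, 22.3% and 21.0% of all pairs. In all 4 groups at once this held for 5 members (2xHAR.10 tile 1, 2xHAR.424 tile 3, 2xHAR.513 tile 1, 2xHAR.520 tile 1 and HAR126), against 3.93% of all pairs. Non-overlap between cultures was thus more common than calls.

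Where a HAR was covered by several tiles, the neighbouring tiles often did not share the difference. The human version of 2xHAR.10 tile 2 shares 51 bases with tile 1, and the pair had a mean difference over the 12 cultures of 0.11 ± 0.09 (SD, n = 12), against 0.49 ± 0.21 for tile 1. The human version of 2xHAR.520 tile 2 shares 162 of 171 bases with tile 1, and the pair gave −0.05 ± 0.09 against 0.24 ± 0.14. In both of these second tiles the human and chimpanzee versions start at different bases (113993070 and 113993089 for 2xHAR.10, 161591816 and 161591821 for 2xHAR.520), so their alleles do not cover the same stretch. HAR106 tiles 1 and 2, which share 170 bases, gave −0.01 ± 0.08 and −0.04 ± 0.09 over the HAR library and 0.50 and 0.26 in the HAR control library, so only one of 2 nearly identical sequences passed the threshold.

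In 2 HARs a neighbouring tile was called lower in human. 2xHAR.424 tile 1 had a higher chimpanzee allele, by −0.41 in the HAR control library and −0.24 ± 0.08 (SD, n = 12) in the HAR library, and was called lower in human in Pt5C at both stages, where tile 3 was called higher. These tiles share 21 bases, and tile 2 between them gave 0.06 ± 0.06. 2xHAR.430 tile 1 shares 126 bases with tile 2 and gave −0.42 in the HAR control library, where tile 2 gave 0.36. In the HAR library tile 1 was called lower in human in Pt5C N2 (−0.25), Pt2A N3 (−0.29) and Pt5C N3 (−0.38), and tile 2 was near 0 in these groups (−0.06, −0.03 and −0.06), was 0.21 in Pt2A N2, and was called in no group. Its positive value in the HAR control library is the one by which it was chosen. In 2xHAR.548 and 2xHAR.513, by contrast, both tiles were members and were called in overlapping sets of groups.

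The activity of the member alleles themselves was tested against the median negative control by edgeR across cultures, over 2440 elements. Human alleles were called higher than that level in 24 of 27 members in Pt5C N2, 24 in Pt5C N3, 19 in Pt2A N3 and 9 in Pt2A N2, and 33.0%, 39.3%, 37.3% and 23.2% of the human alleles of all 839 pairs were. Chimpanzee alleles of the members were called higher in 11, 13, 8 and 11, with 31.8%, 37.8%, 36.8% and 26.7% over all pairs. Over all 2440 elements 31.8%, 37.6%, 36.6% and 27.4% were called higher. The median human activity was 0.22, 0.36, 0.14 and 0.00 in these groups and the median chimpanzee activity 0.01, 0.07, −0.02 and 0.00. Because the rule asked for a high human value over a low chimpanzee value in the HAR control library, these counts describe the set and are no separate evidence of a difference. The negative controls spread widely, too: 22.0% to 30.5% of them were called higher than their own median by this test.

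In all 4 groups 7 human and 4 chimpanzee alleles of the members were called active, 11 of 54. That held for 9.55% of all elements and for 8 of the 118 negative controls (6.78%). At N3 the human allele of 2xHAR.149 was the strongest outside 2xHAR.10 and 2xHAR.548. It read 0.20 ± 0.03 (SD, n = 3) at N2 in Pt2A and 0.48 ± 0.14 in Pt5C, and at N3 0.96 ± 0.03 in Pt2A and 0.87 ± 0.02 in Pt5C. The HAR106 tile 1 human allele was called below the negative-control median in Pt2A N2 (−0.11 ± 0.02), Pt2A N3 (−0.13 ± 0.06) and Pt5C N3 (−0.08 ± 0.04), although it had read 0.46 ± 0.03 in the HAR control library.

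Whether the allele difference changed with stage or line was tested directly, as the difference of differences, by the same pair of tests. From N2 to N3 the difference, human minus chimpanzee, rose in 14 members and fell in 0, against 5.01% of all pairs that rose and 4.29% that fell. A rise need not start from a human advantage: in Pt2A N2 the difference was −0.43 for 2xHAR.270 tile 1 and −0.42 for 2xHAR.458. The largest rises were those of 2xHAR.548 tile 2 (0.64), 2xHAR.10 tile 1 (0.36), 2xHAR.270 tile 1 (0.33), 2xHAR.548 tile 1 (0.33) and 2xHAR.458 (0.30). Within the lines the rise was called for 15 members in Pt2A, against 6.56% of all pairs, with 1 fall (2xHAR.430 tile 2, −0.24; 5.96% of all pairs fell), and for 0 members in Pt5C (0.0% of all pairs). Pt2A N2 enters both the pooled and the Pt2A comparison. With N3 DNA under the N2 RNA, the pooled rise was called for 8 members, against 2.74% of all pairs, of which 7 were among the 14, and a fall for 0, against 2.03%. The same DNA then stands under both stages and cancels. These stage values are therefore changes in the human to chimpanzee RNA ratio alone, not in RNA over DNA. 2xHAR.548 tile 2 then rose by 0.38, 2xHAR.10 tile 1 by 0.33, 2xHAR.548 tile 1 by 0.30, 2xHAR.270 tile 1 by 0.24, 2xHAR.273 by 0.17, 2xHAR.149 by 0.15, 2xHAR.424 tile 3 by 0.15 and 2xHAR.520 tile 1 by 0.14, while 2xHAR.458 had a value of −0.01. In Pt5C alone with N3 DNA the RNA ratio rose in 4 members, against 0.477% of all pairs, and fell in 1 (2xHAR.530, −0.17), against 0.358%.

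In this comparison the HAR control library can be set beside the stages as values, since it was read in Pt2A at N2. 2xHAR.548 tile 2 had a human activity of 1.78 ± 0.04 (SD, n = 3) and a chimpanzee activity of 0.70 ± 0.03 there, against 0.05 ± 0.12 and 0.00 ± 0.01 in Pt2A N2 of the HAR library and 1.40 ± 0.09 and 0.33 ± 0.08 in Pt2A N3. 2xHAR.10 tile 1 had 1.56 ± 0.02 and 0.65 ± 0.03, against 0.31 ± 0.04 and 0.06 ± 0.06 at Pt2A N2 and 1.18 ± 0.05 and 0.44 ± 0.04 at Pt2A N3. The pairs were chosen for their HAR control values, so these are given as a description only. Stage and these N2 libraries cannot be told apart within Pt2A.

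Between lines, the difference, human minus chimpanzee, was higher in Pt5C than in Pt2A in 14 members and lower in 1 (2xHAR.430 tile 2, −0.14), against 4.53% and 3.58% of all pairs. With N3 DNA under the N2 RNA 4 members stayed called, all higher in Pt5C, against 0.954% of all pairs: 2xHAR.513 tile 2 (0.34), 2xHAR.166 (0.34), 2xHAR.270 tile 1 (0.31) and 2xHAR.424 tile 3 (0.24). At N3, where the Pt2A N2 libraries play no part, the difference was higher in Pt5C in 6 members, against 1.67% of all pairs, and higher in Pt2A in 1 (2xHAR.548 tile 2, −0.52), against 1.19%. The 6 were 2xHAR.424 tile 3 (0.39), 2xHAR.166 (0.39), 2xHAR.513 tile 2 (0.38), 2xHAR.270 tile 1 (0.26), 2xHAR.445 (0.25) and 2xHAR.472 (0.22). The HAR control library was also read in Pt2A, at N2. There the allele differences of these 6 were 0.40, 0.54, 0.87, 0.75, 0.80 and 0.40 in the same order, and that of 2xHAR.548 tile 2 was 1.07. Those values chose the pairs and are given as a description only. By culture, 2xHAR.424 tile 3 had 0.12, 0.15 and 0.04 in Pt2A N3 against 0.57, 0.47 and 0.46 in Pt5C N3, and 2xHAR.513 tile 2 had −0.12, −0.01 and −0.12 against 0.29, 0.30 and 0.31, without overlap in either pair.

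RNA and DNA were also set side by side, since the ratio can differ through either. The human allele of the members was less abundant in DNA than the chimpanzee allele: the median log2 ratio of human to chimpanzee DNA counts was −0.25 in the HAR control library and −0.24, −0.34, −0.31 and −0.30 at N2 in Pt2A and Pt5C and then at N3 in Pt2A and Pt5C, against −0.01 to 0.00 over all pairs. Over the 12 DNA libraries of the HAR library it was below 0 in 21 of 27 members and in 51.3% of all pairs. The RNA ratio had a median of 0.30 in the HAR control library but of −0.23, −0.14, −0.13 and −0.03 in the 4 groups. Human RNA was the more abundant in 7, 11, 9 and 12 of the 27 members in these groups. Of the members called in the mean, 2xHAR.548 tile 1 had RNA ratios of 0.36, 0.08, 0.64 and 0.40 and 2xHAR.424 tile 3 had 0.17, 0.31, 0.16 and 0.62, both above 0 throughout. 2xHAR.10 tile 1 had −0.13 and −0.02 at N2 and 0.34 and 0.17 at N3, and 2xHAR.520 tile 1 had −0.02, 0.09, 0.11 and 0.25. 2xHAR.548 tile 2 differed from these, with RNA ratios of −0.81, −0.88, −0.18 and −0.75 over DNA ratios of −0.86, −1.17, −1.25 and −1.30. 2xHAR.458 and 2xHAR.445 were the extreme cases, with DNA ratios of −2.31 and −1.90 and RNA ratios of −2.16 and −1.54 in Pt5C N3.

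Other pairs with a lower human DNA count can be set beside the members. Of the 839 pairs, 195 had a DNA ratio at or below the members' median of −0.31, and the 181 of these that were no members had a median allele difference of −0.02 over the 4 groups, with 73 above 0. Over all pairs the DNA ratio correlated with the allele difference at r = −0.183 within the HAR control library and at 0.0152 within the HAR library. In both cases ratio and difference share the DNA counts. Between the libraries, the DNA ratio of the HAR control library correlated with the mean difference of the 4 groups at 0.0171. The 6 members whose DNA ratio was 0 or above included 2 called in at least 1 group, and the 21 below 0 included 13. The part of the DNA imbalance in the members' differences was not tested.

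Single barcodes carried up to 13.9% of the RNA counts of a member allele in the HAR library and up to 15.4% in the HAR control library (2xHAR.48 tile 2, human). Barcodes of 2 pairs whose values moved without them are shown here. They are 15 bases and printed in lower case as read, with no part in capitals.

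HAR152 human, strongest barcode: tacttagattggttc

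HAR152 chimpanzee, strongest barcode in the HAR library: cagagtatggtcagg

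HAR152 chimpanzee, strongest barcode in the HAR control library: agcattggtccttca

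2xHAR.120 human, strongest barcode: catgaatggaaccgg

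The HAR152 human barcode held 12.6% of the RNA and 7.85% of the DNA counts of its allele over the HAR library, and the first chimpanzee barcode 10.1% and 12.9%. In the HAR control library the second chimpanzee barcode held 8.59% of RNA and 18.9% of DNA. Without the strongest barcode of each allele the HAR152 difference in the HAR control library fell from 0.33 to 0.10, below the threshold, and its mean over the 4 groups from 0.31 to 0.19. Averaged over barcodes instead of summed, the HAR152 difference was −0.07 in the HAR control library, the opposite sign, and 0.13 in the mean. The strongest barcode of the 2xHAR.120 human allele held 13.9% of RNA and 7.33% of DNA. Without the strongest barcodes that pair went from 0.364 to 0.297 in the HAR control library, also below the threshold, and from 0.14 to 0.04 in the mean. HAR126 went from 0.304 to 0.283 in the HAR control library and so fell below the threshold too. For 2xHAR.445, not shown, the mean went from 0.16 to 0.10 without the strongest barcodes.

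For the members called in the mean, barcodes were also compared one by one. The share of human barcodes whose own RNA over DNA lay above the median chimpanzee barcode was 83.0% to 97.9% over the 4 groups for 2xHAR.10 tile 1 and 75.9% to 88.6% for 2xHAR.548 tile 1. It was lowest in Pt2A N2 for the others: 44.0% there and 72.0% to 92.8% in the other groups for 2xHAR.548 tile 2, 64.6% and 72.2% to 85.9% for 2xHAR.424 tile 3, and 41.7% and 74.7% to 82.7% for 2xHAR.520 tile 1. In 2xHAR.63, which was not called, it was 44.9% in Pt5C N3, although it had been 85.4% in the HAR control library. Without the strongest barcode the mean differences of the 5 were 0.50 (2xHAR.548 tile 2), 0.47 (2xHAR.10 tile 1), 0.48 (2xHAR.548 tile 1), 0.23 (2xHAR.424 tile 3) and 0.23 (2xHAR.520 tile 1), against 0.49, 0.49, 0.48, 0.23 and 0.24 with all barcodes.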

How the data were processed

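Barcode count tables of 30 lentiMPRA libraries were used (24 of the HAR library, 6 of the HAR control library). The authors deposited a count for each 15-base barcode and element. Per the labels, molecules carried unique identifiers of 10 bases. The sources used here do not say whether the counts are molecules or reads, or which aligner was used. Coordinates are those in the element names, printed 1-based, with the build GRCh37 per the submitters' processing notes. No annotation of that build was used, so genes are named as background and exon or intron was not determined.

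Counts were summed over barcodes per element. Human and chimpanzee elements of the same HAR name and tile formed 839 tested pairs, all with more than the minimum of 10 barcodes per allele. The members and lists were chosen with earlier results of these data known. edgeR 4.0.16 (R 4.3.3) was fitted on all pairs and 24 libraries, with TMM factors from all 2440 elements. In the barcode permutation test, barcodes were reassigned between the alleles of a pair 10000 times, or 100000 times where a p was under 0.1 (549 pairs). Both were tested on simulated data. The p-values measure the spread between cultures of 1 line each and between barcodes. Pairs are named with every culture where called in the mean or in at least 2 groups, and with group means where called in 1 group, among the 8 largest by the rule, or with a called stage or line effect. RNA and DNA libraries of a group share replicate numbers, but the deviations of same-numbered libraries from the group means correlated at −0.135 to 0.0792 over the 12 pairs, none above 0.1. RNA 3 and DNA 2 of Pt2A N2, with other numbers, correlated at 0.171. The main tests therefore did not use the numbers as pairs. The values by culture, their SDs and the counts over cultures did: each RNA library was set over the DNA library of its number. Group means do not depend on this pairing. Alternatives were DESeq2 1.42.0, library totals, N3 DNA, barcode minimums, leaving out the strongest barcode, averaging over barcodes and leaving out each culture. The permutation library was searched for member HARs (0 elements) and otherwise not used, and the H3K27ac peak files were not used.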

Additional observations from a re-analysis of the deposited data

Results flagged for a closer look

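These are differences of the allele difference between groups that passed both tests (edgeR's quasi-likelihood test and the barcode permutation test). Their cause was not tested, and both contrasts include the Pt2A N2 libraries, which stood apart.

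The difference, human minus chimpanzee, was higher at N3 than at N2, in log2, for 2xHAR.548 tile 2 (0.64), 2xHAR.10 tile 1 (0.36), 2xHAR.270 tile 1 (0.33), 2xHAR.548 tile 1 (0.33), 2xHAR.458 (0.30), 2xHAR.48 tile 2 (0.25), 2xHAR.530 (0.18), 2xHAR.120 (0.18), 2xHAR.273 (0.17), 2xHAR.520 tile 1 (0.17), 2xHAR.445 (0.17), 2xHAR.274 (0.15), 2xHAR.424 tile 3 (0.15) and 2xHAR.47 (0.12). With N3 DNA under the N2 RNA 7 of these 14 stayed called, and 2xHAR.458, 2xHAR.530 and 2xHAR.120 then had values of −0.01. The DNA cancels in that stage contrast, which leaves the change in the RNA ratio alone.

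The same difference was higher in Pt5C than in Pt2A for 2xHAR.270 tile 1 (0.35), 2xHAR.513 tile 2 (0.33), 2xHAR.166 (0.27), 2xHAR.424 tile 3 (0.26), 2xHAR.445 (0.26), 2xHAR.458 (0.26), 2xHAR.472 (0.20), 2xHAR.513 tile 1 (0.20), 2xHAR.48 tile 2 (0.19), 2xHAR.120 (0.19), 2xHAR.520 tile 1 (0.18), 2xHAR.530 (0.14), 2xHAR.70 tile 3 (0.14) and 2xHAR.47 (0.10), and lower for 2xHAR.430 tile 2 (−0.14). With N3 DNA 4 of these 15 stayed called.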

How the results depend on the processing

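With N3 DNA under the N2 RNA the calls higher in human went from 2 to 4 members in Pt2A N2 and from 5 to 8 in the mean of the 4 groups, stage effects from 14 to 8 and line effects from 15 to 4. For the stage effects this is a contrast of RNA ratios alone, since the DNA cancels. The mean without Pt2A N2 gave 11 and edgeR alone 21. Averaging over barcodes in the barcode permutation test took Pt5C N2 from 11 to 8 (7 among the 11), Pt2A N3 from 7 to 4 and Pt5C N3 from 12 to 9 (8 among the 12). It left Pt2A N2 at 2 and took the mean from 5 to 7. Of the 38 single calls, 11 were lost under it. Applied to the rule, averaging over barcodes kept 22 of the 27 members, and leaving out the strongest barcode kept 24. Leaving out 1 culture gave 2 to 2 calls in Pt2A N2, 6 to 11 in Pt5C N2 (6 without replicate 1 and 6 without replicate 2), 5 to 8 in Pt2A N3, 8 to 12 in Pt5C N3 (8 without replicate 1), 5 to 6 in the mean, 11 to 15 stage effects, 11 to 15 line effects, 9 to 13 member alleles active in all 4 groups, and 25 to 32 members of the rule. The replicate block (culture number) left the calls at 2, 11, 7, 12 and 5, and gave 15 stage and 15 line effects; 7 of 12 RNA libraries correlated best with the DNA library of their own number. DESeq2, library totals and barcode minimums changed no count of calls, but they could change little. DESeq2, library totals and the replicate block left the barcode permutation test as it was. That test alone gave the same counts of calls as both tests in every group and in the mean. All pairs passed the minimum of 10 barcodes, and each member allele had 56 or more. Of 449 values of single called members under alternatives, 413 kept call and direction, 36 lost the call and 0 changed direction. The settings just named gave 38 values each, all of which kept the call, so the tally is weighted towards them. Tests on variants and on the permutation library were not run, since 0 such elements of these HARs were found in the tables used here. Depth was lowest for HAR152, with a mean DNA count of 547 for its chimpanzee allele. The cause of these changes was not tested.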
